A study of Mus musculus with 12 samples.

Results

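RNA sequencing compared epithelial cells from lungs of C57BL/6 mice taken 2 weeks after bleomycin with those of mice given saline. The mice were 8 to 10 weeks old. Bleomycin, a DNA-damaging anticancer drug used in mice to injure the lung and set off fibrosis, was given into the trachea at 1.5 U/kg, and the other mice had saline by the same route. The description covers every gene in the deposited table of this comparison, 13984 genes in 3 bleomycin libraries and 3 saline libraries, out of 12 libraries in the series. A level of 1 FPKM or more in 3 or more of these libraries was required for a test, and 12725 genes met it. A gene below 1 FPKM throughout 1 group was tested only where all 3 libraries of the other group reached that level. Such a gene could be counted only as higher in that other group, and list counts below hold genes of this kind. The other 6 libraries, used near the end, came from mice given lipopolysaccharide (LPS, a bacterial cell wall component) at 2 mg/kg 1 day before and from mice given the same bleomycin dose 4 weeks before. FPKM counts sequenced fragments per transcript length and per sequencing depth. All fold changes are differences of log2(FPKM + 1), bleomycin minus saline, on a scale that makes the change of weakly expressed genes look smaller than it is.

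The alveolar epithelium has flat type 1 (AT1) cells for gas exchange and cuboidal type 2 (AT2) cells that make surfactant and divide to replace lost cells. Bleomycin breaks DNA, and after the injury the epithelium divides, changes state and exchanges signals with fibroblasts and macrophages while matrix is laid down. Collagens, surfactant proteins and macrophage markers are the best known readouts of this model. The account below goes to the other genes and functions. As context, 47 of 59 tested matrix genes rose and 0 fell (2 at unadjusted p under 0.05), and 8 of 9 surfactant genes fell and 0 rose (0 at unadjusted p under 0.05).

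Cells for both groups were prepared in the same way. Lung was digested, red cells were lysed, cells carrying CD16/32, CD45, CD31, CD90, Ter119 or PDGFRα were depleted, and cells carrying EpCAM were kept. Epcam, the gene of the selected protein, had 22.9, 29.9 and 30.4 FPKM in the bleomycin libraries, against 39.02, 46.2 and 38.8 FPKM in the saline libraries, and the groups did not overlap (log2 -0.57 ± 0.13 SE, adjusted p = 0.0166, and 0.0549 without saline library 2). RNA of depleted types was present in both groups. Ptprc, the gene of CD45, had 8.02, 8.85 and 6.11 FPKM in the bleomycin libraries, against 6.82, 4.90 and 7.24 FPKM in the saline libraries, and its difference did not pass (adjusted p = 0.319). Fcgr3, which encodes a CD16 receptor, rose, with 59.9, 48.3 and 47.02 FPKM in the bleomycin libraries, against 13.7, 7.90 and 14.1 FPKM in the saline libraries (adjusted p = 0.000662). Thy1, the CD90 gene, also rose, with 31.7, 36.04 and 28.7 FPKM after bleomycin and 15.98, 8.78 and 10.2 FPKM after saline (adjusted p = 0.00251). Pdgfra had 47.3, 42.1 and 48.3 FPKM in the bleomycin libraries, against 50.97, 50.9 and 47.6 FPKM in the saline libraries (adjusted p = 0.317) and Pecam1, the gene of CD31, had 65.2, 42.3 and 52.9 FPKM with bleomycin and 81.4, 46.5 and 59.99 FPKM with saline (adjusted p = 0.523), with overlapping groups for both.

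Marker lists gave the make-up of each library. AT2 markers fell in 14 of 17 tested genes, and the summed level of the list was 6574 to 8187 FPKM in bleomycin libraries and 19875 to 25355 FPKM in saline libraries. Of 20 AT1 markers 8 fell (3 to 12 over the alternatives) and 1 rose (862 to 1075 FPKM with bleomycin and 1136 to 1650.3 FPKM with saline), of 19 ciliated cell markers 8 fell (2 to 12 over the alternatives, with sums of 383 to 479 FPKM with bleomycin and 544 to 651 FPKM with saline), and of 13 club and goblet markers 7 fell (5276 to 8796 FPKM with bleomycin and 14468 to 19845 FPKM with saline). Of 23 macrophage and monocyte markers 17 rose and Lyz2 fell, and the sum of the whole list was 3313 to 4593 FPKM in bleomycin libraries and 4194 to 4712 FPKM in saline libraries. Their sum without Lyz2, which AT2 cells also express, was 1162 to 1623 FPKM in bleomycin libraries and 347 to 555 FPKM in saline libraries. Fibroblast and smooth muscle markers rose in 8 and fell in 3 of 20 genes, and their sums of 3176 to 3782 FPKM with bleomycin and 3066 to 3795 FPKM with saline overlapped. Endothelial (551 to 928 FPKM with bleomycin and 779 to 1203 FPKM with saline), neutrophil (356 to 502 FPKM with bleomycin and 343 to 803 FPKM with saline) and lymphocyte (167 to 247 FPKM with bleomycin and 172 to 402 FPKM with saline) sums overlapped as well. Of 14 lymphocyte markers 3 rose, the T cell genes Cd3e, Cd3g and Cd4 (log2 1.02, 1.04 and 0.95, adjusted p = 0.00528, 0.00936 and 0.00801), each with all bleomycin libraries above all saline libraries, and 0 fell (1 at unadjusted p under 0.05). Of 4 basal markers 2 rose (0 to 3 over the alternatives, the lowest among genes of at least 5 FPKM). The call of Krt5 was lost without saline library 3 (adjusted p = 0.0573). Basal sums were 6.50, 14.8 and 8.32 FPKM in the bleomycin libraries, against 6.10, 5.92 and 2.69 FPKM in the saline libraries. Mesothelial marker sums were 235 to 300.4 FPKM with bleomycin and 374 to 479 FPKM with saline, and those of red cell and platelet markers 61.8 to 103 FPKM with bleomycin and 106 to 327 FPKM with saline. Defining markers listed at 0 in a library were the neutrophil gene Ly6g and the basal gene Krt14. These libraries are bulk RNA, in which fewer cells of a type and less RNA per cell cannot be told apart, and the part of the cell make-up in each result below was not tested. AT1 marker falls numbered 3 without bleomycin library 1 or saline library 3, 4 without bleomycin library 2 and 5 without bleomycin library 3. Ciliated cell marker falls numbered 2 without saline library 2, 5 without bleomycin library 1 or saline library 3 and 3 without bleomycin library 3. Fibroblast marker falls numbered 5 without saline library 1.

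**Figure D1:**
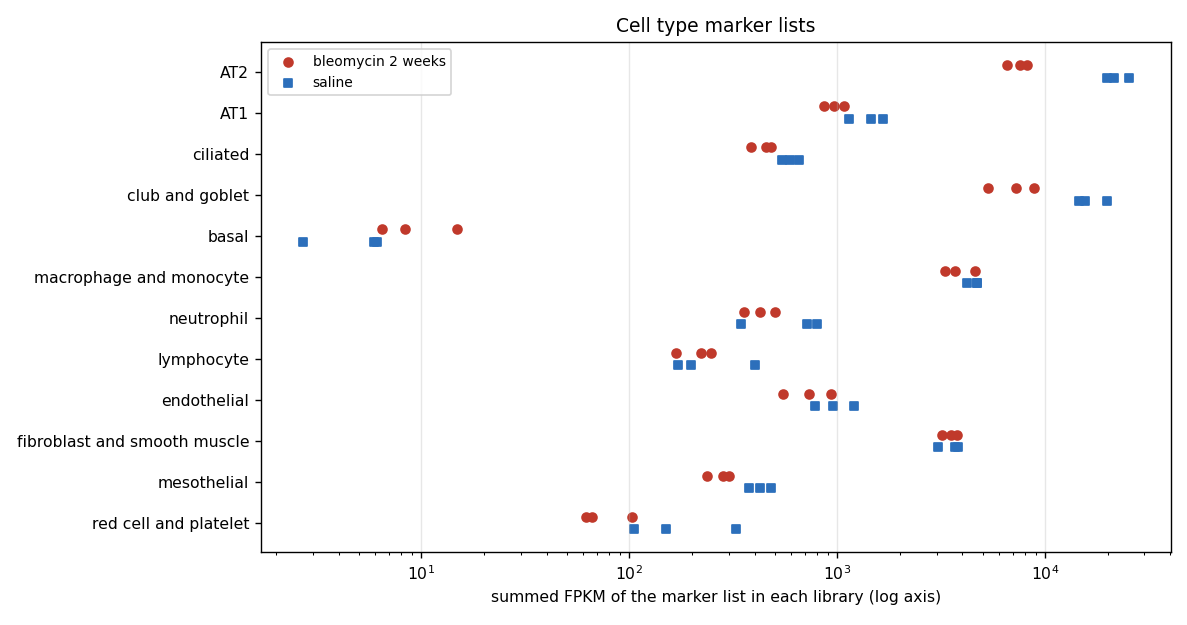
Summed FPKM of 12 cell type marker lists in each of the 6 libraries, on a log axis, with bleomycin 2 weeks as circles above saline as squares. The AT2 and the club and goblet sums of all bleomycin libraries lie below those of all saline libraries, as do the AT1, ciliated, mesothelial and red cell sums, while the fibroblast, endothelial, neutrophil and lymphocyte sums overlap.

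Against saline, 2290 of 12725 genes rose (18.0%) and 1496 fell (11.8%) at 2 weeks by limma with a Benjamini-Hochberg adjusted p under 0.05, the threshold used throughout. Of these, 515 rose and 201 fell by at least 1 on the log2 scale. All 3 bleomycin libraries lay above all 3 saline libraries for 28.4% of genes and below them for 18.8%. Over all genes the median was 0.05 on the log2 scale, and the 6 libraries separated by group on the first principal component (69.2% of variance). The authors' deposited table gives 1681 genes higher and 951 lower at its q under 0.05. Without bleomycin library 2 the genes that rose numbered 1390, and without bleomycin library 3 the rises numbered 1248 and the falls 905. Falls numbered 965 without saline library 2 and 951 without saline library 3. The split depends on scaling. Of the genes called, 60.5% rose with the FPKM as deposited, 79.8% with libraries scaled to equal totals (median of all genes 0.18), 50.1% with median-ratio scaling (median -0.01) and 48.7% with quantile normalization (median -0.02). Counts were repeated under 15 alternatives of pseudocount, filter, test, scaling and libraries left out, one of them a fit on 11 libraries that adds those of LPS and 4 weeks. A range in parentheses after a count of a list gives the lowest and highest count over these alternatives. Every count of a list is to be read beside the 18.0% and 11.8% of all genes that rose and fell. Whether each library is a separate animal is not stated in the labels. The p-values therefore measure no more than the differences among these libraries, some of which may be technical.

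Several of the largest rises outside the matrix, surfactant and leukocyte marker lists were in genes of secreted proteins. Outside a list means only that the gene was not a listed member. The matrix list held Thbs1 and Ctgf, but not Thbs4 and Wisp1, which belong to the same families, nor Cilp or Mgp. Thbs4, which encodes a secreted thrombospondin, had 37.3, 42.2 and 35.9 FPKM in the bleomycin libraries, against 0.158, 0.318 and 0.259 FPKM in the saline libraries (log2 4.99 ± 0.10 SE, adjusted p = 1.4e-06). It was close to undetected in the saline group and well expressed in every bleomycin library. Fst and Grem1, which encode follistatin, a binder of activins, and gremlin 1, a binder of bone morphogenetic proteins (BMPs), were at the same extreme. Fst had 32.9, 51.5 and 44.5 FPKM in the bleomycin libraries, against 1.82, 2.34 and 2.23 FPKM in the saline libraries (log2 3.79 ± 0.17, adjusted p = 4.33e-05), and Grem1 had 7.92, 18.4 and 12.02 FPKM with bleomycin and 0.319, 0.497 and 0.116 FPKM with saline (log2 3.33 ± 0.27, adjusted p = 0.000293). Inhba, the gene of the activin A subunit that follistatin binds, rose beside it, with 12.1, 18.7 and 15.7 FPKM in the bleomycin libraries, against 1.41, 2.60 and 1.12 FPKM in the saline libraries (log2 2.63 ± 0.23, adjusted p = 0.000361). Sfrp1, a secreted Wnt antagonist, stood at 87.1, 104 and 100.2 FPKM in the bleomycin libraries, against 8.76, 10.6 and 11.7 FPKM in the saline libraries, and Wisp1, a secreted protein of the CCN family, at 8.93, 14.9 and 13.7 FPKM with bleomycin and 0.133, 1.86 and 1.51 FPKM with saline (log2 3.12 and 2.72, adjusted p = 3.23e-05 and 0.00179). Ereg, the gene of the EGF receptor ligand epiregulin, had 15.8, 22.01 and 23.1 FPKM in the bleomycin libraries, against 3.76, 1.26 and 1.77 FPKM in the saline libraries (log2 2.76 ± 0.28, adjusted p = 0.000603).

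The rest of the 12 largest rises were Saa3 (an acute phase serum amyloid A), Cilp (a secreted protein first known from cartilage), Rgs16 (a brake on G protein signalling), C1qtnf6 (a secreted C1q-like protein) and Ctss (the lysosomal protease cathepsin S). Saa3 had 71.4, 58.6 and 62.6 FPKM in the bleomycin libraries, against 2.71, 3.90 and 3.04 FPKM in the saline libraries. Rgs16 had 63.4, 78.2 and 73.3 FPKM with bleomycin and 9.42, 8.76 and 7.75 FPKM with saline, and C1qtnf6 37.8, 44.03 and 46.5 FPKM with bleomycin and 5.13, 5.43 and 6.73 FPKM with saline. Cilp had 39.97, 45 and 38.9 FPKM with bleomycin and 3.16, 4.48 and 6.41 FPKM with saline. Their log2 fold changes were 3.96, 2.91, 2.70 and 2.93, with adjusted p of 2e-05, 2.78e-05, 4.63e-05 and 0.000185. Ctss had 876, 732 and 571 FPKM in the bleomycin libraries, against 143, 81.1 and 112 FPKM in the saline libraries (adjusted p = 0.000348) and was the most abundant of the 12. Saa3 has close paralogs, and reads may be shared between them, so its level is less certain than the others. In mm10 coordinates of the deposited table, Thbs4 lies on chromosome 13 (92751590 to 92794818), Fst on chromosome 13 (114452262 to 114458730), Grem1 on chromosome 2 (113746164 to 113758646), Sfrp1 on chromosome 8 (23411502 to 23449632) and Ereg on chromosome 5 (91074622 to 91093646).

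**Figure D2:**
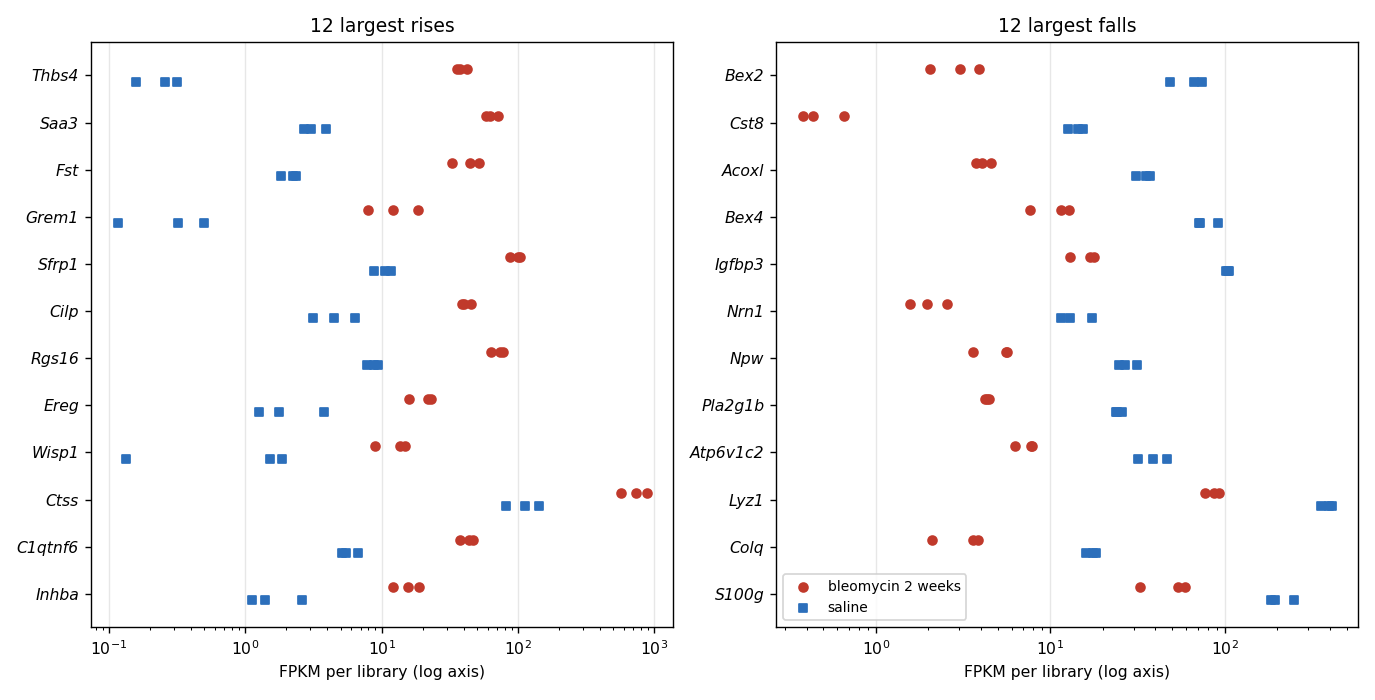
FPKM of the 12 genes with the largest rise (left) and the 12 with the largest fall (right) in each library, on log axes, bleomycin 2 weeks as circles above saline as squares. Each gene's groups are apart, as the choice of genes required, from Ctss at 571 to 876 FPKM with bleomycin down to Cst8 at 0.381 to 0.657 FPKM.

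Outside the matrix, surfactant and leukocyte marker lists, the largest falls were in genes of varied function. The AT2 marker sum was also lower in every bleomycin library, as given above, and its part in these falls was not tested. Bex2 and Bex4, X-linked genes of small adaptor proteins first found in brain, fell together. Bex2 had 2.03, 3.90 and 3.05 FPKM in the bleomycin libraries, against 66.5, 74.1 and 48.7 FPKM in the saline libraries (log2 -4.01 ± 0.21 SE, adjusted p = 7.48e-05), and Bex4 had 7.61, 12.9 and 11.6 FPKM with bleomycin and 71.2, 90.9 and 72.2 FPKM with saline (log2 -2.78 ± 0.19, adjusted p = 0.000187). The 2 are close relatives, and reads may be shared between them, so each level is less certain. Cst8, a gene of the cystatin family of protease inhibitors, had 0.381, 0.657 and 0.433 FPKM in the bleomycin libraries, against 12.6, 15.3 and 14.4 FPKM in the saline libraries (log2 -3.34 ± 0.11, adjusted p = 2.02e-05), so it was below 1 FPKM in every bleomycin library. Acoxl, related to the peroxisomal acyl-CoA oxidases, had 4.03, 4.54 and 3.76 FPKM in the bleomycin libraries, against 31.1, 37.3 and 35.3 FPKM in the saline libraries (log2 -2.80 ± 0.10, adjusted p = 2.74e-05). Igfbp3, which encodes a carrier of insulin-like growth factors, had 17.8, 13.04 and 16.9 FPKM in the bleomycin libraries, against 105, 102 and 106 FPKM in the saline libraries (log2 -2.65 ± 0.12, adjusted p = 4.33e-05). Bex2 lies on chromosome X (136066564 to 136068236), Cst8 on chromosome 2 (148798785 to 148805595), Acoxl on chromosome 2 (127838876 to 128123873) and Igfbp3 on chromosome 11 (7206086 to 7213923) in mm10.

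Among the other large falls were Nrn1 and Npw, which encode the neuronal growth protein neuritin and the secreted neuropeptide W. Nrn1 had 1.56, 2.54 and 1.96 FPKM with bleomycin and 11.4, 17.4 and 13.01 FPKM with saline, and Npw 3.62, 5.62 and 5.56 FPKM with bleomycin and 26.8, 31.5 and 24.7 FPKM with saline. Pla2g1b, the gene of a secreted phospholipase A2, had 4.45, 4.24 and 4.30 FPKM in the bleomycin libraries, against 25.8, 24.2 and 23.9 FPKM in the saline libraries, with the smallest spread of the 24 genes (log2 -2.27 ± 0.07 SE, adjusted p = 2e-05). Atp6v1c2, a subunit gene of the proton pump that acidifies organelles, had 6.29, 7.75 and 7.88 FPKM with bleomycin and 38.6, 46.7 and 31.8 FPKM with saline, Colq, the collagen-like tail of acetylcholinesterase, 3.61, 2.11 and 3.85 FPKM with bleomycin and 18.4, 17.6 and 16.1 FPKM with saline, and S100g, a cytosolic calcium binder, 32.9, 59.5 and 53.7 FPKM with bleomycin and 184, 248 and 194 FPKM with saline. Lyz1, a lysozyme gene, had 76.9, 87.04 and 92.97 FPKM in the bleomycin libraries, against 356, 399 and 410.3 FPKM in the saline libraries. Lyz1 and Lyz2 are near-identical, and the deposited levels of both are uncertain for that reason. Log2 fold changes of these genes ran from -2.30 to -2.11, and adjusted p from 2e-05 to 0.000778.

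In absolute FPKM the largest differences were mostly in other genes. Outside the matrix and surfactant lists, the 6 largest rises in mean FPKM were in Mgp, Ctss, Ctsd, Igfbp7, Psap and Retnla, and the 6 largest falls in Scgb1a1, Lyz2, Gsn, mt-Co1, Inmt and Cbr2. The Lyz2 call (adjusted p = 0.0156) was lost in 5 of 15 alternatives, with adjusted p of 0.0558 to 0.0662 without bleomycin library 3 or saline library 2 or 3. The Mgp call (adjusted p = 0.016) was lost in 4, with adjusted p of 0.0518 and 0.0657 without bleomycin library 1 and without library 3. That of Igfbp7 (adjusted p = 0.0236) was lost in 5, with adjusted p of 0.0595 to 0.082 without bleomycin library 1 or 3 or saline library 1 or 2. Scgb1a1, the gene of the main secretory protein of club cells, had 6448, 3386 and 5028 FPKM in the bleomycin libraries, against 10682, 14835 and 11399 FPKM in the saline libraries (log2 -1.35 ± 0.26 SE, adjusted p = 0.0081). With quantile normalization its direction turned (log2 0.12, adjusted p = 0.519), as did that of the mitochondrial gene mt-Co1 (log2 0.15, adjusted p = 0.739). Gsn, the gene of the actin-severing protein gelsolin, had 1267, 659 and 1079 FPKM in the bleomycin libraries, against 2211, 2489.8 and 2443 FPKM in the saline libraries (adjusted p = 0.00645). Cbr2, a lung carbonyl reductase, had 630.1, 408 and 521 FPKM with bleomycin and 1393, 1758 and 1463 FPKM with saline (adjusted p = 0.000887). Ctsd and Psap, lysosomal genes of cathepsin D and prosaposin, rose to 646, 487 and 466 FPKM and 789, 584 and 572 FPKM with bleomycin, against 192, 188 and 204 FPKM and 361, 310.1 and 352 FPKM with saline (adjusted p = 0.000461 and 0.00367). Retnla, a secreted protein of allergic and repairing lung, had 398, 357 and 396 FPKM in the bleomycin libraries, against 103, 82.6 and 76.7 FPKM in the saline libraries (adjusted p = 0.000106).

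Genes of cell division rose. Of 23 tested genes of mitosis 23 rose (median log2 fold change 1.51, against 0.05 for all genes and 18.0% of all genes that rose). Under 15 alternatives the count was 9 to 23, the lowest among genes of at least 5 FPKM, where 9 members could be tested. Without bleomycin library 1, 2 or 3 it was 11, with 11 members tested. In each of these fits the rest of the list did not meet the filter. Plk1, Kif20a and Tpx2, for example, were below 1 FPKM in every saline library. Such members met the filter only through the bleomycin libraries, so a fall in them could not have been counted. The count of 23 and the median of 1.51 include such members and are in part set by the filter. The levels stayed low. Plk1, the gene of a kinase that drives entry into and progress through mitosis, had 5.22, 5.85 and 5.30 FPKM in the bleomycin libraries, against 0.978, 0.810 and 0.829 FPKM in the saline libraries (log2 1.79 ± 0.09 SE, adjusted p = 6.25e-05). Ube2c, the ubiquitin carrier of the anaphase complex, had 7.83, 9.78 and 8.48 FPKM with bleomycin and 1.79, 1.45 and 1.84 FPKM with saline (log2 1.84 ± 0.11, adjusted p = 0.000118). Mki67, the gene of the proliferation marker Ki-67, had 7.55, 8.73 and 7.48 FPKM with bleomycin and 1.78, 1.14 and 1.13 FPKM with saline (log2 1.93 ± 0.13, adjusted p = 0.000187). The groups did not overlap for any of these 3 genes, and Tpx2 and Kif20a, spindle genes, had log2 fold changes of 1.83 and 1.94.

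The promoters of mitotic genes are known to carry CHR elements and CCAAT boxes, through which they are repressed in resting cells and turned on late in the cell cycle. Windows from 250 bases before to 50 bases after the start were read from RefSeq (GRCm38.p6, the mm10 assembly), which matched 18 of the 23 genes. On either strand, a CHR element (TTTGAA or TTTAAA) was in the windows of 88.9% of these genes and a CCAAT box (CCAAT) in 88.9%, against 22.4% and 42.1% of the 9684 tested genes with a window. A match of letters is a description and not a binding site. Windows of 3 of the genes above are printed because both motifs are in each, with every match on either strand in capitals. Where matches overlap, the capitals run together.
Plk1, chr7:122159185-122159484, plus strand: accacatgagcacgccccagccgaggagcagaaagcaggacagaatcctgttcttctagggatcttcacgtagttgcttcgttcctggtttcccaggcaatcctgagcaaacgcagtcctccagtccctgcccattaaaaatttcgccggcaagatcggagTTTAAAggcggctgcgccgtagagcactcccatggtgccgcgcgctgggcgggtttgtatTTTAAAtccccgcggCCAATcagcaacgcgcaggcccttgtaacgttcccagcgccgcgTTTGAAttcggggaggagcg
Ube2c, chr2:164769679-164769978, plus strand: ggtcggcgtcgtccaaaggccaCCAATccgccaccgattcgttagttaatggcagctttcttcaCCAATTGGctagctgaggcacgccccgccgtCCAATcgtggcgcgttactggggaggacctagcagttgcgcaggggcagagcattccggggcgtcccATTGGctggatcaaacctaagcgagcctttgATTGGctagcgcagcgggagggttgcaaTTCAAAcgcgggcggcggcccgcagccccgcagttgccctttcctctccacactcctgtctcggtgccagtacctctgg
Mki67, chr7:135716330-135716629, minus strand: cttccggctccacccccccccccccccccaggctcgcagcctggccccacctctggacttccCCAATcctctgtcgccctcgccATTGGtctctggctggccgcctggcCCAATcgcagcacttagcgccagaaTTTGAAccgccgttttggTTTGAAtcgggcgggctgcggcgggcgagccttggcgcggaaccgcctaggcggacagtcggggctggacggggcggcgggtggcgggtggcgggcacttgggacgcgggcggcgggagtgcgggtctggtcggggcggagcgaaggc

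DNA replication genes rose too. Of 22 tested genes 18 rose (9 to 19 over the alternatives) and 0 fell (0 at unadjusted p under 0.05), with a median log2 fold change of 0.70. Rrm2, a subunit gene of ribonucleotide reductase, had 7.80, 11.5 and 9.21 FPKM in the bleomycin libraries, against 2.34, 1.90 and 1.66 FPKM in the saline libraries (log2 1.81 ± 0.15 SE, adjusted p = 0.000324). Mcm5 and Mcm6, parts of the replicative helicase, had 7.85, 9.02 and 8.44 FPKM and 11.8, 13 and 11.8 FPKM with bleomycin, against 3.21, 2.50 and 2.47 FPKM and 7.22, 6.76 and 6.54 FPKM with saline (adjusted p = 0.000293 and 0.000873). Of 18 histone and chromatin genes 9 rose (3 to 11 over the alternatives, the lowest in the fit on 11 libraries), among them the condensin gene Smc2, with 4.11, 7.13 and 5.26 FPKM with bleomycin and 1.67, 1.67 and 1.53 FPKM with saline (adjusted p = 0.00165). Histone and chromatin rises numbered 5 without bleomycin library 3 or saline library 2 and 4 without bleomycin library 2.

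**Figure D3:**
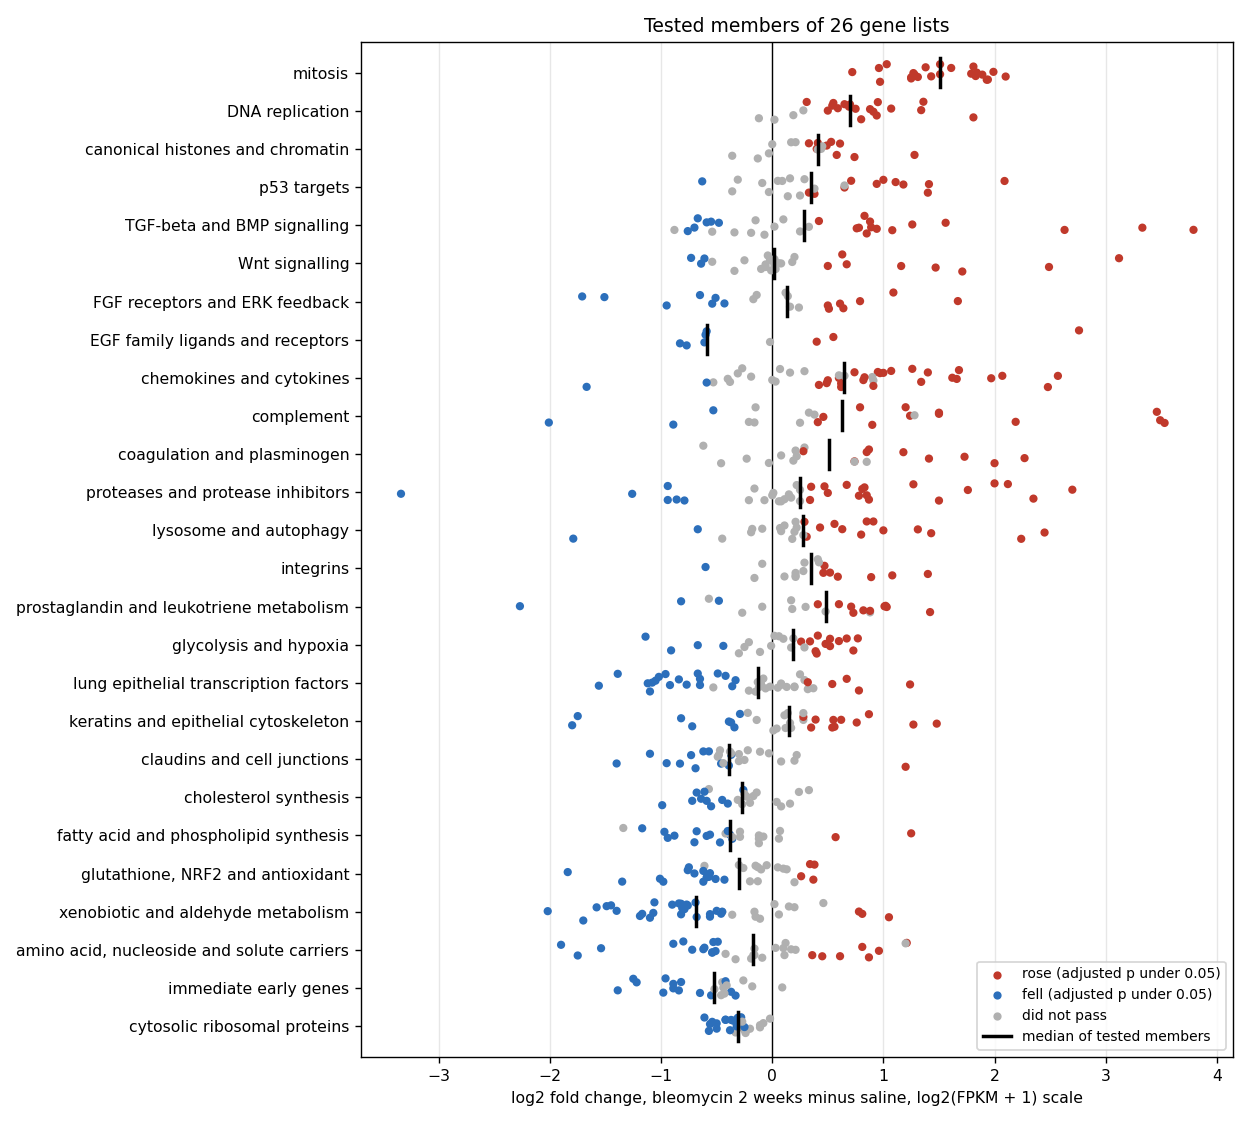
Log2 fold changes of the tested members of 26 gene lists, 1 dot a gene, bleomycin 2 weeks minus saline on the log2(FPKM + 1) scale, red for genes that rose, blue for genes that fell, grey for those that did not pass, and a black bar at the list's median. The mitosis list has its median at 1.51 and all its dots red, and the xenobiotic list has its median at -0.69. Some mitosis members met the filter only through the bleomycin libraries and could be red or grey but not blue.

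**Figure D4:**
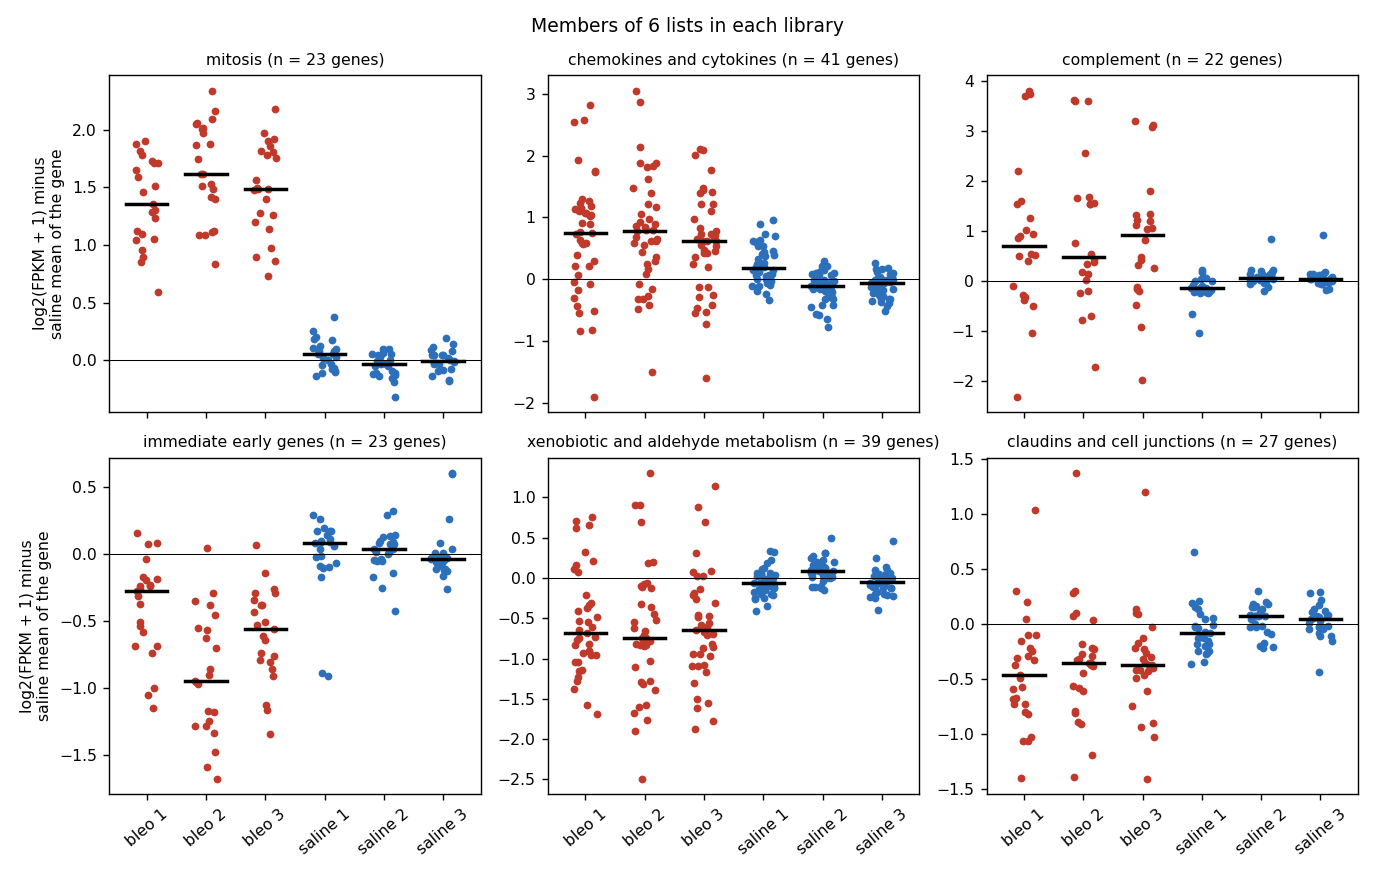
Levels of the tested members of 6 lists in each of the 6 libraries, as log2(FPKM + 1) minus the gene's saline mean, with the median of each library as a bar, bleomycin 2 weeks libraries (bleo 1 to 3) left of saline libraries. The mitosis medians of the 3 bleomycin libraries all lie above 1 and those of the saline libraries near 0. Some of the mitosis members met the filter only through the bleomycin libraries.

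Targets of the p53 protein, which answers DNA damage, rose in part. Of 24 tested targets 11 rose (7 to 15 over the alternatives) and 1 fell. Among the risen ones, Eda2r and Psrc1 were below 1 FPKM in every saline library, so a fall in them could not have been counted. Phlda3, an Akt inhibitor, had 77.4, 77.5 and 81.4 FPKM in the bleomycin libraries, against 28.6, 31.4 and 27.9 FPKM in the saline libraries (log2 1.40 ± 0.08 SE, adjusted p = 7.78e-05). Eda2r, a receptor of the TNF family, had 3.10, 4.01 and 3.43 FPKM with bleomycin and 0.728, 0.671 and 0.668 FPKM with saline (log2 1.41 ± 0.10, adjusted p = 0.000216), and Psrc1, a spindle protein, 5.43, 5.37 and 6.04 FPKM with bleomycin and 0.519, 0.807 and 0.355 FPKM with saline (log2 2.09 ± 0.12, adjusted p = 0.000114). Cdkn1a, which encodes the cell cycle inhibitor p21 and is the target most often measured, did not pass, with 190.4, 162 and 180.1 FPKM in the bleomycin libraries, against 174, 118 and 122 FPKM in the saline libraries (log2 0.38 ± 0.16, adjusted p = 0.114), and its groups overlapped. Btg2, an antiproliferative gene that also belongs to the early response genes, fell to 393, 333 and 385 FPKM with bleomycin, against 596, 563 and 560.0 FPKM with saline (adjusted p = 0.00306). Among growth arrest and senescence genes 5 of 14 rose (3 to 5) and 3 fell. Glb1, the gene of the lysosomal galactosidase behind the senescence stain, had 23.4, 22.7 and 20.2 FPKM in the bleomycin libraries, against 12.2, 11.6 and 11.4 FPKM in the saline libraries (adjusted p = 0.000534), and Cdkn1c, the gene of the inhibitor p57, fell to 9.12, 9.55 and 10.3 FPKM with bleomycin, against 19.6, 20.9 and 19.4 FPKM with saline (adjusted p = 0.000298). Of 12 repair genes 3 rose (1 to 8, the highest among 19 genes with no filter) and 2 fell (0 to 2), shares near the 18.0% and 11.8% of all genes, with Apex1, a base excision repair endonuclease, at 16.7, 19.3 and 16.8 FPKM with bleomycin and 11.2, 8.01 and 10.4 FPKM with saline (adjusted p = 0.00462). Target rises numbered 7 without bleomycin library 3. Growth arrest rises numbered 3 without bleomycin library 1 or 3 or saline library 2.

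Of 30 tested genes of TGF-beta and BMP signalling 14 rose (10 to 16 over the alternatives) and 6 fell (2 to 7, the lowest in the fit on 11 libraries). Among ligands Tgfb1, Tgfb2, Tgfb3, Inhba and Inhbb rose (log2 0.78 to 2.63), while Bmp2 and Bmp3 fell (log2 -0.59 and -0.48) and Bmp4 and Bmp6 did not pass (log2 -0.19 and -0.88). Among secreted antagonists Fst, Grem1 and Nog rose (log2 0.88 to 3.79), as did Fstl1, a secreted follistatin-like protein, with 179, 208 and 205 FPKM in the bleomycin libraries, against 56.01, 71.3 and 71.8 FPKM in the saline libraries (log2 1.56 ± 0.12 SE, adjusted p = 0.000251). Of the receptors Tgfbr1 and Tgfbr2 rose (log2 0.94 and 0.76), and the co-receptor Tgfbr3 fell to 13.9, 13.8 and 14.9 FPKM with bleomycin, against 25.3, 22.7 and 21.9 FPKM with saline (adjusted p = 0.0014, and 0.0885 in the fit on 11 libraries). Bambi, a decoy receptor, fell to 8.38, 7.75 and 6.67 FPKM with bleomycin, against 12.2, 13.9 and 12.8 FPKM with saline (adjusted p = 0.00274), the BMP targets Smad6 and Id3 fell too (log2 -0.76 and -0.55), and Id1, another, did not pass (log2 -0.15). Members given by a log2 value, other than Fst, Grem1, Inhba and Fstl1, were chosen by role after their values were seen. Of the genes named in this list, Bmp2 lost its call in 8 of 14 alternatives (adjusted p = 0.0646 to 0.108 without bleomycin library 1, 2 or 3 or saline library 2 or 3). Bmp3 lost it in 4 of 15 (adjusted p = 0.0508 and 0.0561 without saline library 3 and without saline library 2), Smad6 in 5 (adjusted p = 0.0522 to 0.0794 without bleomycin library 2 or 3 or saline library 1 or 3) and Tgfb1 in 1 (adjusted p = 0.0508 without saline library 3). The Tgfbr2 call was lost in the fit on 11 libraries (adjusted p = 0.068). TGF-beta and BMP falls numbered 3 without saline library 3.

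Of 28 Wnt genes 8 rose (4 to 9 over the alternatives) and 3 fell (2 to 6), the largest rise being that of Sfrp1, given above. Fzd1, a frizzled receptor, had 48.2, 48.6 and 49.9 FPKM in the bleomycin libraries, against 12.7, 15.2 and 14.9 FPKM in the saline libraries (log2 1.71 ± 0.09 SE, adjusted p = 6.5e-05), while Fzd5, another, fell to 3.49, 3.87 and 3.65 FPKM with bleomycin, against 5.88, 6.96 and 6.06 FPKM with saline (adjusted p = 0.00278, and 0.0595 in the fit on 11 libraries). Wnt10a was listed at 0 in all 3 saline libraries and had 1.61, 1.94 and 1.78 FPKM with bleomycin (adjusted p = 0.000112). Dkk2, a modulator of Wnt receptors, had 4.26, 6.75 and 6.50 FPKM with bleomycin and 0.167, 0.178 and 0.254 FPKM with saline (log2 2.49 ± 0.16, adjusted p = 0.000146). Nkd1, a feedback inhibitor inside the cell that is itself a Wnt target, fell to 20.5, 15.5 and 19.1 FPKM with bleomycin, against 33.7, 27.98 and 31.2 FPKM with saline (adjusted p = 0.00469), and the widely used target Axin2, chosen after its values were seen, did not pass (log2 -0.25, adjusted p = 0.0686). The median of the list was 0.02, and that of all genes 0.05. Wnt rises numbered 5 without bleomycin library 1 or 3 and 4 without bleomycin library 2. Wnt10a and Dkk2 were below 1 FPKM in every saline library, so a fall in them could not have been counted.

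FGF signalling, which maintains AT2 cells, changed in both directions. Of 20 genes of FGF signalling 7 rose and 7 fell (3 to 8 and 3 to 8 over the alternatives, the fall count being lowest in the fit on 11 libraries and the rise count there and without bleomycin library 3). Fgfr2, the epithelial FGF receptor of AT2 cells, had 5.61, 4.19 and 6.30 FPKM in the bleomycin libraries, against 15.7, 19.5 and 15.99 FPKM in the saline libraries (log2 -1.51 ± 0.15 SE, adjusted p = 0.000538). Etv5, an ETS factor downstream of FGF, had 13.3, 18.2 and 16.9 FPKM with bleomycin and 48.95, 60.7 and 55.03 FPKM with saline (log2 -1.71 ± 0.13, adjusted p = 0.000257). Its relative Etv4 went the other way, with 1.61, 3.07 and 2.56 FPKM in bleomycin libraries and 0.0774, 0.0826 and 0 FPKM in saline libraries (log2 1.67 ± 0.16, adjusted p = 0.000548). The ligand Fgf2 had 10.3, 13.8 and 11.6 FPKM with bleomycin and 4.78, 5.02 and 5.20 FPKM with saline (adjusted p = 0.00069, and 0.145 in the fit on 11 libraries). FGF rises numbered 4 without bleomycin library 1 and 3 without bleomycin library 3. Etv4 met the filter only through the bleomycin libraries, so a fall in it could not have been counted.

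In the EGF family 5 of 9 genes fell and 3 rose (1 to 4; median -0.59, and -0.02 over 11 genes with no filter). The rise count was lowest in the fit on 11 libraries. Its ligands moved in both directions. Ereg had a log2 fold change of 2.76, whereas Tgfa fell to 1.12, 1.17 and 1.28 FPKM with bleomycin, against 2.16, 2.45 and 2.38 FPKM with saline (adjusted p = 0.00256). Areg, the amphiregulin gene, had 50.2, 59.4 and 62.2 FPKM in the bleomycin libraries, against 74.3, 113 and 79.3 FPKM in the saline libraries (log2 -0.60 ± 0.17, adjusted p = 0.0325), and it lost its call in 7 of 15 alternatives, with adjusted p of 0.0514 to 0.0908 without bleomycin library 1, 2 or 3 or saline library 2 or 3. Errfi1, a feedback inhibitor of the EGF receptor, fell to 91.2, 90.4 and 109.8 FPKM with bleomycin, against 159.5, 182 and 157 FPKM with saline (adjusted p = 0.00216). In the insulin-like growth factor list 3 of 12 rose (1 to 3) and 5 fell (3 to 6). The ligand Igf1 had 23.7, 39.6 and 31.1 FPKM in the bleomycin libraries, against 4.95, 4.92 and 7.40 FPKM in the saline libraries (log2 2.25 ± 0.21, adjusted p = 0.00047). Carriers of insulin-like growth factors moved both ways. Igfbp6 fell to 134, 115 and 151 FPKM with bleomycin, against 241, 297 and 279.5 FPKM with saline (adjusted p = 0.00128), beside the larger fall of Igfbp3. Igfbp4 rose to 200.2, 158.5 and 177.3 FPKM with bleomycin, against 87.3, 93.5 and 91.55 FPKM with saline (log2 0.96, adjusted p = 0.000671, and 0.0587 in the fit on 11 libraries).

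Of 19 Notch genes 1 rose and 1 fell, and the fallen gene was Hes1, a direct Notch target, with 66.96, 60.1 and 67.8 FPKM in the bleomycin libraries, against 97.9, 95.3 and 87.2 FPKM in the saline libraries (adjusted p = 0.00432). Of 18 Hippo pathway genes and YAP targets 4 rose (2 to 4) and 2 fell (0 to 3). The receptor kinase Axl had 69.9, 75.8 and 63.5 FPKM in the bleomycin libraries, against 26.1, 25.8 and 29.6 FPKM in the saline libraries (log2 1.33 ± 0.10 SE, adjusted p = 0.000216) and Ctgf 264, 267 and 299.8 FPKM with bleomycin and 84.5, 156 and 139 FPKM with saline (adjusted p = 0.00737). The 2 that fell were Amotl2 and Cyr61. Amotl2 had 20.1, 17.5 and 18.5 FPKM with bleomycin and 25.5, 30.7 and 31.8 FPKM with saline (adjusted p = 0.00514, and 0.167 in the fit on 11 libraries). Cyr61 had 540.5, 450 and 538.5 FPKM with bleomycin and 671, 733 and 793 FPKM with saline (adjusted p = 0.0131). Its call was lost in 3 of 15 alternatives, with adjusted p of 0.0522 without saline library 3. Of 12 Hedgehog genes 3 rose (1 to 4) and 0 fell (2 at unadjusted p under 0.05), with Gli2, a transcription factor of the pathway, at 2.07, 2.12 and 1.94 FPKM with bleomycin and 1.19, 1.28 and 1.14 FPKM with saline (adjusted p = 0.00636). Hippo and Hedgehog rises were near the 18.0% of all genes, and their medians were 0.07 and 0.10, against 0.05 for all genes. Among 21 angiogenic signals 6 rose and 4 fell (1 to 5), with a median of 0.05. Vegfc and Pgf, of the VEGF family, had 11, 9.73 and 11.1 FPKM and 10.6, 14.2 and 12.7 FPKM with bleomycin, against 5.97, 4.998 and 5.45 FPKM and 5.07, 4.45 and 6.68 FPKM with saline (adjusted p = 0.000972 and 0.00259), and the peptide gene Edn3 fell to 1.83, 1.72 and 1.95 FPKM with bleomycin, against 3.77, 4.67 and 4.66 FPKM with saline (adjusted p = 0.000934). Hippo and YAP rises numbered 2 without bleomycin library 3. Angiogenic falls numbered 2 without bleomycin library 1 or 3 or saline library 1, 2 or 3.

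Guidance cues of axons, which also act on epithelium and vessels, changed in both directions. Of 30 semaphorin, plexin, ephrin, slit and netrin genes 9 rose and 7 fell (5 to 9 and 2 to 7 over the alternatives). Unc5b, a netrin receptor, had 7.84, 8.21 and 7.83 FPKM in the bleomycin libraries, against 3.42, 2.34 and 2.63 FPKM in the saline libraries (log2 1.25 ± 0.12 SE, adjusted p = 0.000488), and the ligand Slit2 7.06, 7.82 and 7.71 FPKM with bleomycin and 3.74, 3.98 and 2.83 FPKM with saline (adjusted p = 0.00163). The ephrin receptor Epha1 fell to 4.14, 3.83 and 4.32 FPKM with bleomycin, against 10.1, 8.93 and 8.39 FPKM with saline (adjusted p = 0.000529). The ligand Efna1 had 7.16, 7.56 and 7.45 FPKM with bleomycin and 13.97, 31.2 and 34.04 FPKM with saline (adjusted p = 0.00747), where saline library 1 was well below the other saline libraries and above every bleomycin library. Guidance cue rises numbered 5 without bleomycin library 3, and falls numbered 2 to 4 without bleomycin library 2 or 3 or saline library 1, 2 or 3.

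Many factors in the list of lung epithelial transcription factors fell. This list shares Atf3, Klf2 and Klf4 with the immediate early list below, and Atf3 was among its falls (log2 -1.39, adjusted p = 0.00069). Of 43 tested factors 18 fell (11 to 18 over the alternatives), against 11.8% of all genes, and 5 rose (3 to 8). Nkx2-1, which specifies lung epithelium, had 19.4, 25.3 and 26.1 FPKM in the bleomycin libraries, against 41.5, 59.99 and 56.8 FPKM in the saline libraries (log2 -1.12 ± 0.17 SE, adjusted p = 0.00305). Tfcp2l1, a grainyhead-like factor, had 1.20, 1.73 and 1.75 FPKM with bleomycin and 6.17, 7.33 and 6.02 FPKM with saline (log2 -1.56 ± 0.12, adjusted p = 0.000284), and Elf5, an ETS factor of distal lung, 1.34, 1.91 and 1.61 FPKM with bleomycin and 4.06, 4.997 and 4.17 FPKM with saline (log2 -1.05 ± 0.12, adjusted p = 0.000938). Among those that rose, Snai1, a repressor of epithelial genes, had 25.8, 24.1 and 29.9 FPKM in the bleomycin libraries, against 9.79, 11.3 and 11.03 FPKM in the saline libraries (log2 1.24 ± 0.10, adjusted p = 0.000325) and Sox9, a factor of distal lung progenitors, had 2.02, 3.02 and 2.69 FPKM with bleomycin and 1.16, 1.14 and 0.907 FPKM with saline (adjusted p = 0.00443). The median of the list was -0.13, and 0.01 with libraries scaled to equal totals. AT2 markers fell in the same libraries, as given above. Transcription factor falls numbered 11 without saline library 2.

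Of 27 genes of claudins and cell junctions 11 fell (7 to 16 over the alternatives) and 1 rose (median -0.39). Cldn3, an epithelial claudin, had 74.7, 68.3 and 76.8 FPKM in the bleomycin libraries, against 154, 181 and 142 FPKM in the saline libraries (log2 -1.10 ± 0.11 SE, adjusted p = 0.000537). Cldn7 had 13.9, 15.2 and 15.3 FPKM with bleomycin and 26.9, 30.9 and 30.6 FPKM with saline (adjusted p = 0.000429), and Gjb6, a gap junction connexin, 1.11, 1.12 and 1.10 FPKM with bleomycin and 4.10, 4.84 and 4.84 FPKM with saline (log2 -1.40 ± 0.09, adjusted p = 0.000168). The member that rose was Cldn2, which forms pores for cations and water, with 1.44, 2.08 and 1.74 FPKM in bleomycin libraries and 0.238, 0.192 and 0.153 FPKM in saline libraries (log2 1.20 ± 0.11, adjusted p = 0.000429). Cdh1, the E-cadherin gene, had 49.1, 53.1 and 52.8 FPKM in the bleomycin libraries, against 59.1, 75.01 and 71.3 FPKM in the saline libraries (adjusted p = 0.027), a call that was lost in 7 of 15 alternatives, with adjusted p of 0.059 to 0.0917 without bleomycin library 1, 2 or 3 or saline library 2 or 3 and 0.198 in the fit on 11 libraries. Cldn4, a claudin of injured alveoli, did not pass (adjusted p = 0.841). It had 23.6, 24.1 and 25.2 FPKM in the bleomycin libraries, against 36.6, 19.7 and 16.6 FPKM in the saline libraries. Junction falls numbered 7 without saline library 2 or 3. Cldn2 met the filter only through the bleomycin libraries, so a fall in it could not have been counted.

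Keratins and tubulins moved both ways, with 11 (7 to 13) of 30 cytoskeletal genes that rose and 8 that fell (4 to 9). Krt8, the keratin that names the transitional state between AT2 and AT1 cells, had 121, 117 and 136 FPKM in the bleomycin libraries, against 203, 224 and 189.5 FPKM in the saline libraries (log2 -0.72 ± 0.10 SE, adjusted p = 0.00192), and its partner Krt18 116, 119 and 137 FPKM with bleomycin and 222, 242 and 196 FPKM with saline (adjusted p = 0.0018). Krt23 and Krt79 fell as well. Krt23 had 4.16, 5.83 and 5.83 FPKM with bleomycin and 18.3, 23.6 and 20.5 FPKM with saline (log2 -1.80 ± 0.14, adjusted p = 0.00028), and Krt79 0.689, 0.842 and 1.09 FPKM with bleomycin and 5.47, 4.41 and 6.03 FPKM with saline (log2 -1.75 ± 0.13, adjusted p = 0.000241). The tubulin Tubb3, best known from neurons, rose to 2.52, 3.80 and 3.80 FPKM with bleomycin, against 0.650, 0.305 and 0.749 FPKM with saline (adjusted p = 0.000957). Of 20 genes described for the transitional state 6 rose and 6 fell (3 to 6). Mdk, the secreted growth factor midkine, had 37.2, 41.1 and 44.5 FPKM in the bleomycin libraries, against 13.4, 14.2 and 11.8 FPKM in the saline libraries (log2 1.57 ± 0.10, adjusted p = 0.000151), and Lgals3, the galectin-3 gene, 147, 149 and 130.0 FPKM with bleomycin and 84.9, 77.6 and 82.9 FPKM with saline (adjusted p = 0.000779). Sfn, another gene of that state, fell to 44.6, 40.8 and 45.9 FPKM with bleomycin, against 64.95, 61.6 and 55.1 FPKM with saline (adjusted p = 0.00934, and 0.205 in the fit on 11 libraries). Cytoskeletal rises numbered 7 without bleomycin library 3, and falls numbered 4 without saline library 2 and 5 without bleomycin library 2 or 3 or saline library 3.

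Integrins rose in 7 of 18 genes (3 to 9 over the alternatives, the lowest in the fit on 11 libraries) and fell in 1. Itga5 and Itgb5, subunits of fibronectin and vitronectin receptors, had 51.6, 46.6 and 53.2 FPKM and 101, 94.5 and 97.8 FPKM with bleomycin, against 22.1, 21.6 and 26.3 FPKM and 47.8, 53.4 and 56.2 FPKM with saline (log2 1.08 ± 0.10 and 0.89 ± 0.08 SE, adjusted p = 0.000454 and 0.000485). The gene that fell was Itga8, a subunit known from mesenchymal cells, with 44.9, 42.9 and 48 FPKM in the bleomycin libraries, against 67.5, 69.5 and 69.8 FPKM in the saline libraries (adjusted p = 0.00131, and 0.239 in the fit on 11 libraries). Among 24 mucin and glycosylation genes 9 rose and 3 fell. Has2, a hyaluronan synthase, had 6.68, 11.01 and 8.72 FPKM in the bleomycin libraries, against 1.28, 0.859 and 1.38 FPKM in the saline libraries (log2 2.16 ± 0.18, adjusted p = 0.000323), and Cd44, a hyaluronan receptor, 51.6, 53.4 and 45.3 FPKM with bleomycin and 33.5, 25.6 and 30.3 FPKM with saline (adjusted p = 0.00384). The transmembrane mucin Muc1 fell to 63.99, 79.2 and 79.1 FPKM with bleomycin, against 113, 152 and 128 FPKM with saline (adjusted p = 0.00471).

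Proteases, coagulation and complement rose in many members. Of 36 proteases and inhibitors 17 rose (11 to 19 over the alternatives) and 6 fell. Ctsk, the gene of the collagen-degrading cathepsin K, had 99.5, 114 and 97.1 FPKM in the bleomycin libraries, against 21.3, 23.7 and 24.2 FPKM in the saline libraries (log2 2.12 ± 0.09 SE, adjusted p = 4.33e-05). Napsa, an aspartic protease of AT2 cells, fell to 67.99, 85.6 and 80.8 FPKM with bleomycin, against 170.5, 211 and 184 FPKM with saline (adjusted p = 0.000485). Of 20 genes of coagulation and plasminogen activation 9 rose (8 to 11 over the alternatives) and 0 fell (3 at unadjusted p under 0.05). F7, the gene of clotting factor VII, had 19.3, 28.2 and 17.7 FPKM in the bleomycin libraries, against 3.94, 2.63 and 4.53 FPKM in the saline libraries (log2 2.27 ± 0.21, adjusted p = 0.000479). Plau, the urokinase gene, had 30.1, 32.5 and 25.9 FPKM with bleomycin and 7.98, 5.34 and 6.75 FPKM with saline (log2 2.00 ± 0.15, adjusted p = 0.000217). Serpine2, the gene of a secreted inhibitor of urokinase and thrombin, rose to 87.7, 98.3 and 101 FPKM with bleomycin, against 25.8, 30.3 and 28.2 FPKM with saline (adjusted p = 7.57e-05).

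Complement genes rose in 12 of 22 members (9 to 15 over the alternatives) and fell in 3 (1 to 3; median 0.63). C1qa, C1qb and C1qc, the chains of the first component, rose by 3.46 to 3.53 on the log2 scale. C1qb had 276, 238 and 182 FPKM in the bleomycin libraries, against 18.9, 19.04 and 18.7 FPKM in the saline libraries (adjusted p = 3.85e-05). These 3 genes are also markers of the macrophage list given above. Cfb, factor B of the alternative pathway, which epithelium makes, had 74.96, 71.9 and 62.3 FPKM in the bleomycin libraries, against 20.7, 28.2 and 23.5 FPKM in the saline libraries (log2 1.50 ± 0.13 SE, adjusted p = 0.000338). Hc, the C5 gene and an AT2 marker, fell to 23.5, 35.96 and 29.9 FPKM with bleomycin, against 102, 140.0 and 124 FPKM with saline (log2 -2.01 ± 0.17, adjusted p = 0.000361). Complement falls numbered 1 without saline library 2 or 3.

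Chemokines and cytokines rose in 24 of 41 members (16 to 27 over the alternatives) and fell in 2 (median 0.65). Of 23 macrophage markers 17 also rose, and their part in this count was not tested. Lif, the gene of an interleukin 6 family cytokine, had 34.2, 39.9 and 38.98 FPKM in the bleomycin libraries, against 8.60, 6.39 and 10.1 FPKM in the saline libraries (log2 2.07 ± 0.15 SE, adjusted p = 0.000225). The monocyte chemokines Ccl7 and Ccl8 had 58.9, 74.8 and 71.6 FPKM and 29.6, 37.4 and 20.1 FPKM with bleomycin, against 27.8, 26.01 and 25.1 FPKM and 3.98, 4.44 and 4.25 FPKM with saline (adjusted p = 0.000266 and 0.000303). Cxcl15, a chemokine made by lung epithelium and an AT2 marker, fell to 230.4, 303 and 283 FPKM with bleomycin, against 756, 1002 and 854 FPKM with saline (log2 -1.67 ± 0.14, adjusted p = 0.000361). Receptors for related signals moved too. Il1rl1, the interleukin 33 receptor, had 2.79, 4.000 and 3.01 FPKM with bleomycin and 0.764, 0.393 and 0.507 FPKM with saline (adjusted p = 0.000534), Il13ra1 24.2, 33.2 and 29.1 FPKM with bleomycin and 13.7, 13.8 and 14.4 FPKM with saline (adjusted p = 0.00113), and the leptin receptor Lepr fell to 7.60, 6.53 and 7.48 FPKM with bleomycin, against 15.9, 13.5 and 14.5 FPKM with saline (adjusted p = 0.00067). Of 33 tetraspanins and surface receptors 10 rose (5 to 12) and 6 fell (2 to 7). Surface receptor falls numbered 2 without bleomycin library 3.

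Some interferon-stimulated genes rose, and few antigen presentation genes did. Of 28 interferon-stimulated genes 8 rose (4 to 14 over the alternatives), against 18.0% of all genes, and 0 fell (1 at unadjusted p under 0.05). Oas1a, an antiviral RNA sensor, had 13.5, 13.99 and 11.4 FPKM in the bleomycin libraries, against 4.31, 2.48 and 3.13 FPKM in the saline libraries (log2 1.72 ± 0.16 SE, adjusted p = 0.000501), and Rsad2, the viperin gene, 6.38, 6.40 and 5.26 FPKM with bleomycin and 2.93, 1.65 and 1.84 FPKM with saline (adjusted p = 0.00224). Of 22 antigen presentation genes 3 rose (0 to 7), near the 18.0% of all genes. The acute phase and antimicrobial list had 6 rises and 5 falls (2 to 5) among 22 genes. Chil1, a chitinase-like protein of AT2 cells, fell to 126, 141 and 135 FPKM with bleomycin, against 303, 394 and 348 FPKM with saline (log2 -1.36 ± 0.11, adjusted p = 0.000304). Interferon-stimulated rises numbered 14 without saline library 1 and 5 without bleomycin library 2 or 3. Antigen presentation rises numbered 0 to 7 without bleomycin library 1 or 2 or saline library 1, 2 or 3. Acute phase falls numbered 3 without bleomycin library 1 and 2 without bleomycin library 3.

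Immediate early genes, which cells turn on within minutes of a stimulus, were lower with bleomycin. Of 23 tested genes 14 fell (9 to 15 over the alternatives) and 0 rose (0 at unadjusted p under 0.05), with a median of -0.52. Egr1 had 283, 187 and 252 FPKM in the bleomycin libraries, against 598, 572 and 532 FPKM in the saline libraries (log2 -1.25 ± 0.15 SE, adjusted p = 0.00133), Fosb 128, 94.8 and 121 FPKM with bleomycin and 284, 280.1 and 238 FPKM with saline (adjusted p = 0.000846), and Nr4a1, a nuclear receptor, 508, 363 and 466 FPKM with bleomycin and 837, 796 and 821 FPKM with saline (adjusted p = 0.00309). Atf3, a stress factor, had 313, 217 and 273 FPKM with bleomycin and 689.6, 762 and 646 FPKM with saline (log2 -1.39 ± 0.15, adjusted p = 0.00069). Bleomycin library 2 was the lowest library for each of these 4 genes. An AP-1 site (TGACTCA, either strand) was in the promoter windows of 0 of 19 matched members, against 4.66% of tested genes. With a share so small, 0 among 19 genes cannot be told apart from it. Immediate early falls numbered 9 without bleomycin library 3 or saline library 3.

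Of 19 circadian clock genes 4 fell (1 to 5 over the alternatives) and 1 rose. Cry2, a repressor in the clock, had 4.40, 5.09 and 5.50 FPKM in the bleomycin libraries, against 9.49, 11.4 and 8.16 FPKM in the saline libraries (adjusted p = 0.00415), and the member that rose was Bhlhe40, with 95.4, 88.1 and 94.1 FPKM with bleomycin and 67.9, 63.7 and 55.9 FPKM with saline (adjusted p = 0.00438). An E-box (CACGTG) was in the windows of 31.2% of 16 matched clock genes and of 11.5% of tested genes. Among 17 glucocorticoid-induced genes 3 rose and 5 fell (3 to 5). Fkbp5, a chaperone of the glucocorticoid receptor and a sensitive target of it, had 9.39, 9.66 and 10.2 FPKM in the bleomycin libraries, against 2.91, 3.13 and 3.17 FPKM in the saline libraries (log2 1.40 ± 0.08 SE, adjusted p = 0.000112), whereas Pdk4, another target, fell to 9.51, 6.88 and 9.77 FPKM with bleomycin, against 21.7, 19.9 and 18.9 FPKM with saline (log2 -1.14 ± 0.13, adjusted p = 0.00114). In the list of protein folding genes 8 of 29 rose (2 to 13 over the alternatives, the lowest in the fit on 11 libraries) and 3 fell (1 to 4). Sdf2l1, a chaperone partner, had 31.2, 32.4 and 29.9 FPKM with bleomycin and 18.5, 16.6 and 21.8 FPKM with saline (adjusted p = 0.00347), and Atf4, the factor of the integrated stress response, fell to 187, 154 and 183 FPKM with bleomycin, against 317, 293 and 272 FPKM with saline (adjusted p = 0.00242). Clock falls numbered 2 without bleomycin library 1 or 2 or saline library 1 or 2. Glucocorticoid-induced falls numbered 3 without bleomycin library 2 or saline library 1 or 2. Protein folding rises numbered 5 without saline library 2 and 3 without bleomycin library 3.

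Enzymes that detoxify foreign compounds and aldehydes fell, with 26 of 39 that fell (22 to 26 over the alternatives) and 3 that rose (0 to 5; median -0.69). Aox3, an aldehyde oxidase, had 5.04, 4.33 and 4.29 FPKM in the bleomycin libraries, against 14.6, 19.2 and 17.7 FPKM in the saline libraries (log2 -1.70 ± 0.12 SE, adjusted p = 0.000193). Fmo2, the main lung flavin monooxygenase, had 65.8, 59.1 and 69.03 FPKM with bleomycin and 144, 149.9 and 152 FPKM with saline (log2 -1.19 ± 0.08, adjusted p = 0.000193), and Cyp4b1, a lung cytochrome P450, 64.7, 47.1 and 61.5 FPKM with bleomycin and 155, 141 and 164 FPKM with saline (log2 -1.40 ± 0.13, adjusted p = 0.000479). Inmt, a methyltransferase that is also in the fibroblast list, fell to 444, 253 and 391 FPKM with bleomycin, against 1424, 1575 and 1311 FPKM with saline (log2 -2.02 ± 0.21, adjusted p = 0.000646). Ephx2, a hydrolase of lipid epoxides, was among the few that rose, with 4.82, 5.92 and 5.80 FPKM with bleomycin and 2.83, 3.04 and 2.27 FPKM with saline (adjusted p = 0.00282). Club and goblet markers, some of which belong to this list, fell as given above.

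The glutathione and antioxidant list followed, with 14 of 31 that fell (10 to 15 over the alternatives) and 4 that rose (0 to 6; median -0.30). Gsta3, a glutathione transferase, had 9.92, 10.8 and 10.3 FPKM in the bleomycin libraries, against 36.1, 41 and 41.6 FPKM in the saline libraries (log2 -1.84 ± 0.08 SE, adjusted p = 5.07e-05), and Gstm1 111, 104 and 140.2 FPKM with bleomycin and 328, 302 and 278 FPKM with saline (log2 -1.35 ± 0.13, adjusted p = 0.000485). Both belong to families of near-identical genes among which reads may be shared. Catalase and superoxide dismutase 1, which clear peroxide and superoxide, fell as well. Cat had 52.9, 58.6 and 55.2 FPKM with bleomycin and 99.6, 126 and 114 FPKM with saline, and Sod1 337, 334 and 363 FPKM with bleomycin and 560.5, 625 and 569 FPKM with saline (adjusted p = 0.000622 and 0.000969). Glutathione and antioxidant rises numbered 0 to 2 without bleomycin library 1, 2 or 3 or saline library 1, 2 or 3.

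Many genes of lipid synthesis fell. In the fatty acid and phospholipid list 12 of 25 fell (6 to 15 over the alternatives, the lowest in the fit on 11 libraries) and 2 rose. Of 23 genes of cholesterol synthesis 10 fell (5 to 14 over the alternatives) and 0 rose (2 at unadjusted p under 0.05). Fasn, fatty acid synthase, had 19.9, 21.8 and 17.8 FPKM in the bleomycin libraries, against 44.1, 49.2 and 43.4 FPKM in the saline libraries (log2 -1.17 ± 0.10 SE, adjusted p = 0.000324), and Insig1, a sterol sensor, 26.9, 32.5 and 30.3 FPKM with bleomycin and 56.95, 59.98 and 63.4 FPKM with saline (log2 -0.99 ± 0.09, adjusted p = 0.000469). The elongase Elovl1 fell to 54.7, 50.4 and 51.01 FPKM with bleomycin, against 90.6, 103 and 109 FPKM with saline (adjusted p = 0.000512), while Elovl6 rose to 2.31, 2.81 and 2.75 FPKM with bleomycin, against 0.511, 0.0868 and 1.15 FPKM with saline (adjusted p = 0.00738). Of 31 genes of lipid uptake, storage and oxidation 8 fell (4 to 14) and 3 rose (2 to 9), and the list's median was -0.09, and 0.07 with libraries scaled to equal totals. Lpl and Lipa, lipases of the cell surface and the lysosome, had 81.7, 114 and 88.6 FPKM and 58.7, 62.5 and 53.8 FPKM with bleomycin, against 30.3, 25.6 and 28.9 FPKM and 24.6, 24.3 and 26.2 FPKM with saline (adjusted p = 0.00027 and 0.000193). Fabp1, a fatty acid binder, fell to 0.640, 0.802 and 1.93 FPKM with bleomycin, against 5.74, 7.50 and 11.9 FPKM with saline (adjusted p = 0.00208). Fatty acid and phospholipid falls numbered 7 without bleomycin library 3. Cholesterol falls numbered 5 without bleomycin library 3. Lipid oxidation falls numbered 5 without bleomycin library 3.

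Genes of eicosanoids, the lipid mediators made from arachidonic acid, rose in 10 of 21 members (5 to 15 over the alternatives) and fell in 3 (1 to 4). Ptgs2, the cyclooxygenase 2 gene, had 88.6, 91.7 and 95.9 FPKM in the bleomycin libraries, against 48.4, 49.8 and 49.97 FPKM in the saline libraries (log2 0.88 ± 0.07 SE, adjusted p = 0.00026, and 0.258 in the fit on 11 libraries). Ptger2, a receptor for prostaglandin E2, had 4.80, 5.57 and 5.56 FPKM with bleomycin and 2.24, 2.01 and 2.16 FPKM with saline (adjusted p = 0.000448), and Tbxas1, thromboxane synthase, 3.82, 3.76 and 2.37 FPKM with bleomycin and 0.647, 0.508 and 0.631 FPKM with saline (adjusted p = 0.000767). The largest fall of the list was Pla2g1b, described above. Eicosanoid rises numbered 5 without bleomycin library 2 and 6 without bleomycin library 3, and falls numbered 1 without saline library 3.

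Of 27 genes of glycolysis and hypoxia 12 rose (4 to 13 over the alternatives, the lowest in the fit on 11 libraries) and 4 fell. Pgam1, a glycolytic mutase, had 62.6, 69.7 and 63.1 FPKM in the bleomycin libraries, against 39.4, 40.98 and 41.1 FPKM in the saline libraries (log2 0.67 ± 0.07 SE, adjusted p = 0.000902). Ldhb, a lactate dehydrogenase subunit, fell to 44.8, 45.1 and 47.9 FPKM with bleomycin, against 78.5, 101 and 82.98 FPKM with saline (adjusted p = 0.0011). Of 28 nuclear genes of oxidative phosphorylation 4 fell (0 to 6), a share near the 11.8% of all genes, and 0 rose (1 at unadjusted p under 0.05), or 7 with equal totals. The median of this list was 0.03, and 0.19 with equal totals. Of 13 mitochondrially encoded genes 12 fell (0 to 12 over the alternatives, the lowest in the fit on 11 libraries), with a median of -0.58 and -0.15 with quantile normalization. They summed to 12557 to 13939.8 FPKM in bleomycin libraries and 19298 to 20599 FPKM in saline libraries. Of 27 genes of cytosolic ribosomal proteins 15 fell (0 to 18) and 0 rose (0 at unadjusted p under 0.05), with changes from -0.61 to -0.02, and 0 of them passed in the fit on 11 libraries. Ribosomal protein genes have many processed copies, and reads may be shared between them. Nuclear oxidative phosphorylation falls numbered 0 to 1 without bleomycin library 1 or 3 or saline library 1, 2 or 3. Ribosomal protein falls numbered 5 to 7 without bleomycin library 2 or 3 or saline library 1, 2 or 3.

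Lysosomal genes rose in 13 of 27 members (10 to 18 over the alternatives) and fell in 2. The macrophage marker sum without Lyz2, given above, was higher in the same libraries, and its part in this count was not tested. Lgmn, the asparaginyl protease legumain, had 213, 198 and 203 FPKM in the bleomycin libraries, against 75.97, 83.3 and 86.5 FPKM in the saline libraries (log2 1.31 ± 0.08 SE, adjusted p = 0.000133). Gpnmb, a glycoprotein of loaded lysosomes that is also in the macrophage list, had 36.6, 28.8 and 19.9 FPKM with bleomycin and 3.85, 4.24 and 4.63 FPKM with saline (log2 2.45 ± 0.20, adjusted p = 0.000318), and the proton pump subunit Atp6v0d2 30.1, 36.6 and 24.4 FPKM with bleomycin and 6.68, 3.96 and 6.41 FPKM with saline (log2 2.24 ± 0.21, adjusted p = 0.000457). Lamp3, of the lamellar bodies of AT2 cells, fell to 47.9, 74.8 and 66.1 FPKM with bleomycin, against 188, 253 and 216 FPKM with saline (adjusted p = 0.000601). Atp6v0d2 and the fallen Atp6v1c2 are subunits of the same type of pump and moved in opposite directions.

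Metal handling genes rose in 8 (4 to 9) and fell in 3 of 22 members. Slc39a14, an importer of zinc and iron, had 13.7, 13.3 and 14.01 FPKM in the bleomycin libraries, against 2.75, 3.69 and 4.69 FPKM in the saline libraries (log2 1.66 ± 0.15 SE, adjusted p = 0.000429), and Steap4, a metalloreductase, 33.9, 27.9 and 32.1 FPKM with bleomycin and 11.02, 12.3 and 12.1 FPKM with saline (log2 1.33 ± 0.10, adjusted p = 0.000216). Atp7b, a copper pump, fell to 1.71, 2.03 and 1.94 FPKM with bleomycin, against 6.46, 7.90 and 6.23 FPKM with saline (log2 -1.44 ± 0.11, adjusted p = 0.000251), and the transferrin receptor Tfrc to 6.27, 10.3 and 8.40 FPKM with bleomycin, against 17.6, 20.7 and 15.3 FPKM with saline (adjusted p = 0.00568). Metal handling rises numbered 5 without bleomycin library 1 or 3 or saline library 2 and 4 without bleomycin library 2.

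Of 35 genes of ion channels and fluid transport 11 fell (7 to 14) and 6 rose (2 to 10), and with equal totals 7 fell and 10 rose. Of 34 solute carriers 13 fell (8 to 16) and 7 rose (4 to 7). Slc26a9, a chloride transporter, had 3.48, 4.55 and 3.88 FPKM in the bleomycin libraries, against 10.5, 12.02 and 12.8 FPKM in the saline libraries (log2 -1.36 ± 0.11 SE, adjusted p = 0.000326), and Cftr, the chloride channel of cystic fibrosis, 0.597, 0.688 and 0.582 FPKM with bleomycin and 1.80, 2.28 and 2.04 FPKM with saline (adjusted p = 0.000699). Slc34a2, the phosphate carrier of AT2 cells, had 80.4, 109 and 96.3 FPKM with bleomycin and 305, 384 and 379.6 FPKM with saline (log2 -1.90 ± 0.14, adjusted p = 0.000225). The amino acid carriers Slc7a5 and Slc7a8 rose to 6.65, 7.05 and 6.79 FPKM and 4.34, 4.91 and 3.19 FPKM with bleomycin, against 3.86, 2.47 and 2.85 FPKM and 1.48, 0.844 and 1.34 FPKM with saline (adjusted p = 0.00218 and 0.0022), while the glutamine carrier Slc1a5 fell to 26.8, 27.8 and 27.7 FPKM with bleomycin, against 40.9, 39.6 and 40.9 FPKM with saline (adjusted p = 0.00128). Of 9 neural genes 1 rose and 1 fell. Of 17 retinoid genes 2 rose (1 to 5) and 3 fell (1 to 4), with Rbp4, a retinol carrier, at 15.8, 11.8 and 14.3 FPKM with bleomycin and 23.6, 26.4 and 23.9 FPKM with saline (adjusted p = 0.00265). Ion channel falls numbered 7 without bleomycin library 2 or saline library 3. Retinoid falls numbered 1 without bleomycin library 3.

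The genes of the largest changes were then set against the other treatments. Of the 24, 22 were in all 3 tables, and Thbs4 and Grem1 were not analysed here in the other treatments. One fit of 11 libraries was used. It left out 4-week library 2, which listed 45.4% of 13518 genes at 0, so the 4-week group rests on library 1 and on a library whose column number matches no label, called the unnumbered library here. Because the genes had been chosen on the same 3 bleomycin libraries, a larger change at 2 weeks than elsewhere follows in part from the choice. Of all genes, 45.0% differed between 2 weeks of bleomycin and LPS (4155 higher and 1609 lower of 12807, median log2 difference 0.26, and 2303 and 2807 with median-ratio scaling), and 4.99% between 2 and 4 weeks (497 and 142, or 283 and 207 with median-ratio scaling).

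Against LPS at 1 day, 8 of the 10 risen genes were higher at 2 weeks of bleomycin and 2 were lower. The 2 lower were Saa3, with 71.4, 58.6 and 62.6 FPKM at 2 weeks and 1149, 3055 and 2548 FPKM after LPS (log2 difference -5.00 ± 0.31 SE, adjusted p = 7.26e-07), and Inhba, with 12.1, 18.7 and 15.7 FPKM at 2 weeks and 32.3, 38.7 and 49.5 FPKM after LPS (log2 -1.32 ± 0.25, adjusted p = 0.00185). Cilp had the widest gap in the other direction, with 39.97, 45 and 38.9 FPKM at 2 weeks and 1.69, 1.01 and 0.549 FPKM after LPS (log2 4.38 ± 0.23, adjusted p = 2.95e-07). Of the 12 fallen genes 5 were lower at 2 weeks than after LPS and 1, Colq, was higher, with 3.61, 2.11 and 3.85 FPKM at 2 weeks and 0.794, 0.370 and 0.278 FPKM after LPS (log2 1.49 ± 0.20, adjusted p = 0.000152). S100g, Acoxl and Atp6v1c2 did not pass between these groups, with log2 differences of -0.10 ± 0.24, 0.01 ± 0.24 and -0.00 ± 0.21 (SE; adjusted p = 0.745, 0.976 and 0.987). Of these 16 calls 5 held with 4-week library 2 in the fit, 15 with median-ratio scaling and 14 with the replicate number as a block. Ctss, among the 8 higher genes, had an adjusted p of 0.0412, of 0.371 with median-ratio scaling and of 0.0734 with the block.

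Against 4 weeks of bleomycin, 8 of 10 risen genes were higher at 2 weeks and 12 of 12 fallen genes were lower. Fst had 32.9, 51.5 and 44.5 FPKM at 2 weeks and 10.2, 0 and 7.27 FPKM at 4 weeks in libraries 1, 2 and the unnumbered library (log2 difference 2.17 ± 0.21 SE without library 2, adjusted p = 0.000264). S100g had 32.9, 59.5 and 53.7 FPKM at 2 weeks and 266, 0 and 177 FPKM at 4 weeks (log2 -2.18 ± 0.27, adjusted p = 0.0011), where the 4-week libraries 1 and unnumbered lie near the saline range. Igfbp3 had 17.8, 13.04 and 16.9 FPKM at 2 weeks and 40.2, 0 and 49.03 FPKM at 4 weeks (log2 -1.44 ± 0.18, adjusted p = 0.0011). Saa3 and Rgs16 did not pass (adjusted p = 0.197 and 0.0596). Of the 20 calls against 4 weeks 2 held with 4-week library 2 in the fit, 16 with median-ratio scaling and 6 with the replicate number as a block.

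**Figure D5:**
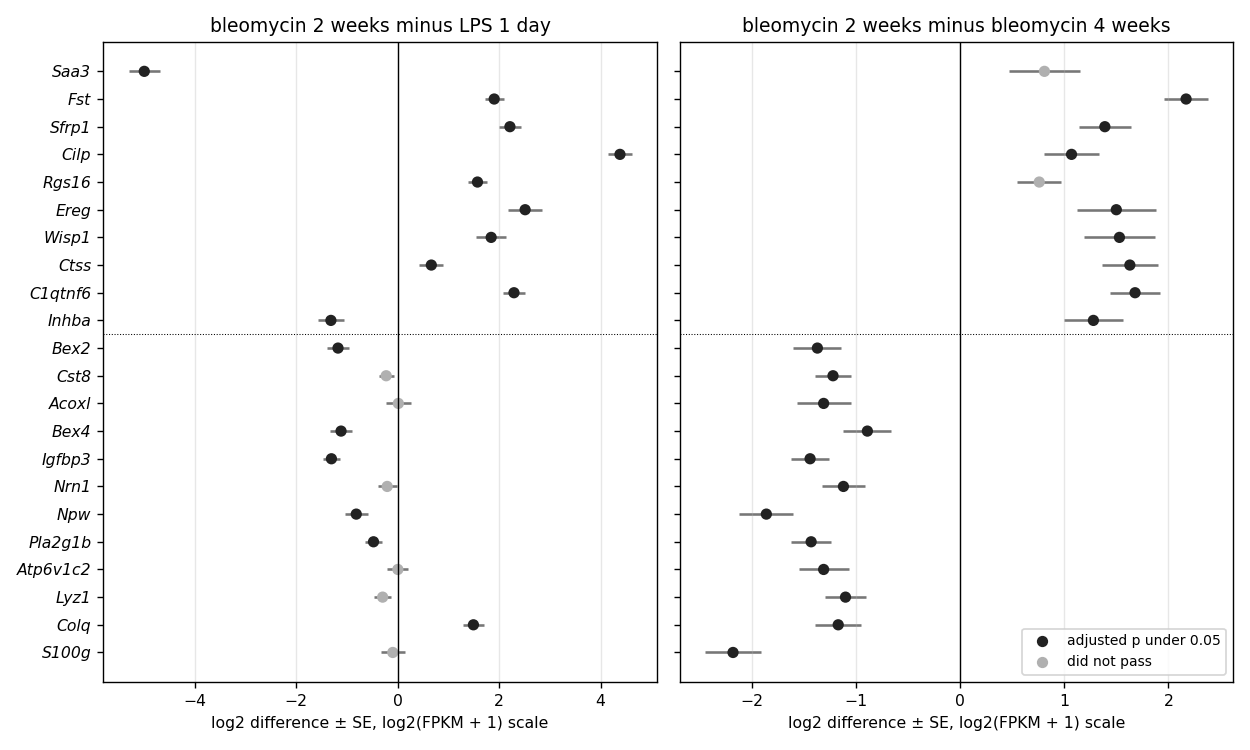
Log2 differences with SE for 22 of the 24 genes of largest change, bleomycin 2 weeks minus LPS 1 day (left) and minus bleomycin 4 weeks (right), from a fit of 11 libraries on the log2(FPKM + 1) scale, black where adjusted p is under 0.05 and grey where not. A dotted line parts risen genes (above) from fallen genes (below), and on the right the fallen genes lie at -2.18 to -0.89.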

How the data were processed

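Per the labels' protocols, total RNA of the sorted lung epithelial cells was made into Illumina libraries. HISAT2, StringTie and the mm10 build are named per the submitters' processing notes, and how reads became values is not stated beyond that. The deposited data are 3 tables, each setting a treatment against the same saline libraries, with FPKM computed by the authors per gene and library and used as deposited with no further scaling. The deposited log2 fold changes equal the difference of the group means of log2(FPKM + 1), per the file headers and a recalculation. The deposited p-value and q-value columns, per the file headers, come from a test that is not named, and they serve here only for 1 count. Of 12 sample columns 11 carry the name of a labelled sample, and 1 of the 4-week group has a number that matches no label and was used as an unnumbered library of that group.

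Differences were fitted with limma 3.58.1 in R 4.3.3 on log2(FPKM + 1), with moderated variances that follow the mean level and Benjamini-Hochberg adjustment over all tested genes. Every adjusted p in the text comes from limma. Genes needed 1 FPKM in 3 of the 6 libraries. The comparisons with LPS and with 4 weeks of bleomycin came from 1 fit of 11 libraries. The procedure was tested on simulated data. Depth is unknown: at most 33.3% to 43.3% of low values of 372 single-exon genes came within 0.1 of a whole read, so counts could not be recovered, and no interval for counting error is given. Replicate numbers do not pair the libraries (correlations of deviations 0.115, -0.089 and 0.024). Named genes are the 12 largest changes each way with a mean of 10 FPKM or more in either group and no overlap between groups, outside the matrix, surfactant and leukocyte marker lists, up to 4 members of each list by adjusted p with up to 2 in the rarer direction, the 6 largest FPKM differences each way, and 14 fixed genes. One gene that the rule names is not reported here. Genes named outside this rule are said to be so. The members and lists were chosen with earlier results of these data known, and 1369 of 1460 listed symbols matched the table. Tried alternatives were another pseudocount, filter, scaling or variance model, a replicate block, the 11-library fit and leaving out each library.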

Additional observations from a re-analysis of the deposited data

Results flagged for a closer look

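The change against saline at 2 weeks of bleomycin differed from that at 4 weeks for 20 of the 22 largest changes in all tables, by a direct test in limma on 11 libraries, where the 4-week group had 2 libraries. As log2 differences of 2 weeks minus 4 weeks, the risen genes gave 2.17 for Fst, 1.39 for Sfrp1, 1.07 for Cilp, 1.50 for Ereg, 1.53 for Wisp1, 1.63 for Ctss, 1.68 for C1qtnf6 and 1.28 for Inhba. The fallen genes gave -1.37 for Bex2, -1.22 for Cst8, -1.31 for Acoxl, -0.89 for Bex4, -1.44 for Igfbp3, -1.12 for Nrn1, -1.86 for Npw, -1.43 for Pla2g1b, -1.31 for Atp6v1c2, -1.10 for Lyz1, -1.17 for Colq and -2.18 for S100g. All 20 were farther from saline at 2 weeks. These genes had been chosen for their change in the same 2-week libraries, so a larger change follows in part from the choice. Of all genes, 4.99% differed between 2 and 4 weeks. Of the 20 calls, 2 held with 4-week library 2 in the fit and 16 with median-ratio scaling. With the replicate number as a block 6 held. Adjusted p ran from 0.000264 for Fst to 0.0498 for Bex4. Depth of the libraries is unknown, and its part in these differences was not tested.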

How the results depend on the processing

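Against saline, 2290 genes rose and 1496 fell. With equal totals 3645 rose and 922 fell, and in the fit on 11 libraries 1074 rose and 699 fell. Leaving out 1 library gave 1248 to 2085 that rose and 905 to 1224 that fell. The other alternatives (pseudocount 0.1, no filter, the stricter filter, median ratios, quantile normalization, no variance trend) stayed within 1.5 times the main counts. With 4-week library 2 included, 484 genes in place of 5764 differed from LPS and 67 in place of 639 from 4 weeks. Of 303 genes chosen for naming, quantile normalization reversed Scgb1a1 (log2 0.12) and mt-Co1 (log2 0.15), and no other alternative reversed any. Calls were lost for 68 of 296 in the fit on 11 libraries, 16 with equal totals, 13 with quantile normalization, both reversed genes among them, and 12 to 29 without 1 library. The cause was not tested. Levels near 1 FPKM are the least certain, and depth is not given by the files.

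With the replicate number as a block, 1936 genes rose and 1374 fell against saline, and 180 differed from 4 weeks. The pairing was not borne out by the data: deviations of same-numbered bleomycin and saline libraries correlated at 0.115, -0.089 and 0.024, and not every library correlated best with its own number. Calls of 10 of the 303 genes were lost under the block.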
